A study of Mus musculus with 45 samples.

Results

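The comparison set combined against sequential BMP4 treatment of differentiating mouse embryonic stem cells (mESCs) at day 5. It rests on 6 of the 45 libraries of the series, 3 from the combined regimen (M5) and 3 from the sequential regimen (B5), taken by their labels. Cells were grown as adherent cultures and passed through a neuromesodermal progenitor stage in medium with basic FGF and CHIR, which activates WNT signalling. Both groups then received retinoic acid (RA), at 100 nM. M5 cultures had 10 ng/ml BMP4 together with RA for 48 h from day 3. B5 cultures had RA alone for 24 h and RA with 10 ng/ml BMP4 for the next 24 h from day 4. M5 therefore differed from B5 both in when BMP4 began and in how long it lasted, and these cannot be told apart here. R5, the day 5 cultures given RA and no BMP4, was set beside them, and M7, B7, M9 and B9 are the same regimens on days 7 and 9. The labels give the length of RA treatment in R5 in 2 ways, as 48 h and as day 3 to day 4. The cell line and its genotype are not named in the labels. The 3 replicates per group came, per the design text, from 3 independent differentiations, but the labels do not say which library came from which. The p-values measure a spread between replicate libraries that was estimated for each gene over all 15 groups, not over M5 and B5 alone.

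BMP4 is a secreted ligand that binds type I and type II serine/threonine kinase receptors, and these phosphorylate SMAD1, SMAD5 and SMAD9, which switch on Id and Msx genes and the pathway's own inhibitors. In the embryo BMPs from the roof plate pattern the dorsal spinal cord into the progenitors of sensory interneurons. In mesoderm and ectoderm BMP signals favour lateral over paraxial mesoderm and epidermis over neural plate. RA from the somites favours neural differentiation of the caudal progenitors and sets anterior Hox genes.

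The authors' table gives a normalised level per gene and library, with no unit named and the read depth unknown, for 11220 genes. Changes are differences of log2(level + 1), M5 minus B5, from 1 limma-trend fit over all 45 libraries. Adjusted p-values are Benjamini-Hochberg values of that fit, and a gene was called at an adjusted p under 0.05. Levels summed to between 13608351 and 14844101 over the 6 libraries. Since the RNA is from whole cultures, fewer cells of a type and less RNA per cell cannot be told apart.

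M5 and B5 differed in 1997 of the 11220 genes (17.8%), with 961 higher in M5 (8.57%) and 1036 lower (9.23%). Of these, 972 differed at least 2-fold (8.66%), 460 upward and 512 downward. The 3 M5 and 3 B5 libraries did not overlap in 3546 genes (31.6%). The median change over all genes was -0.01. Centring each library on its median gave 1188 higher and 852 lower genes, a share higher of 58.2% against 48.1%. The table holds only genes that the authors' own tests picked, and M5 against B5 was among those tests, so the called share is larger than it would be in all expressed genes. Leaving out M5 replicate 1, M5 replicate 2 or B5 replicate 3 lowered the count to 1225, 1142 or 1026. Replicate libraries were not alike in the called genes. Among the 1036 lower, M5 replicate 3 was the highest M5 library in 795 (76.7%). B5 replicate 3 was the highest B5 library in 602 (58.1%), and B5 replicate 2 the lowest in 628 (60.6%). Among the 961 higher, M5 replicate 3 was the lowest M5 library in 565 (58.8%), and B5 replicate 3 the lowest B5 library in 588 (61.2%). Without M5 replicate 3 the count was 1996, and without B5 replicate 2 it was 1817.

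**Figure D1:**
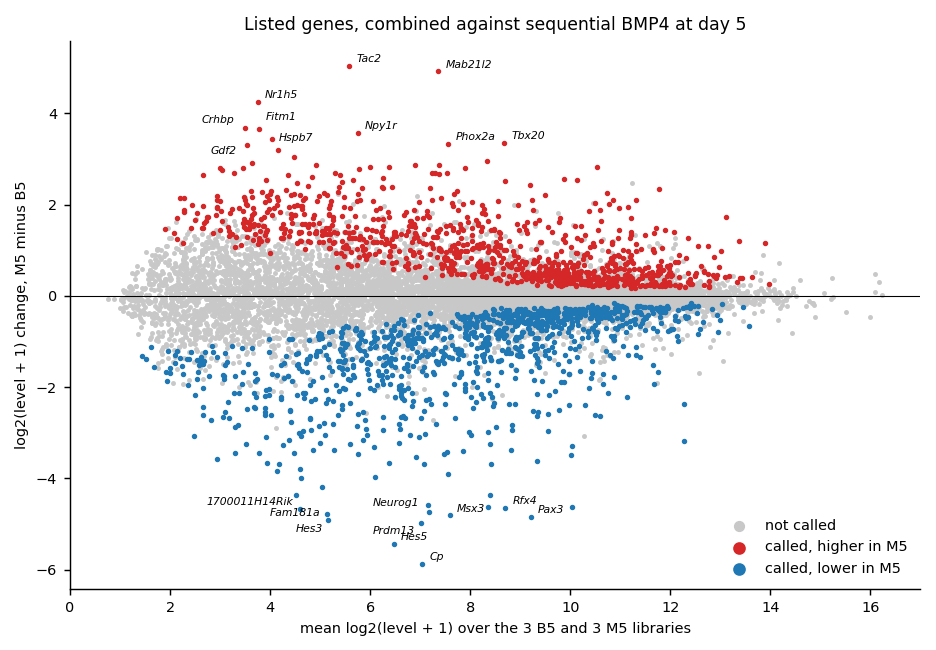
Mean log2(level + 1) over the 3 B5 and 3 M5 libraries (horizontal) against the log2(level + 1) change M5 minus B5 (vertical) for 11220 genes. Red and blue points are the 961 called higher and 1036 called lower in M5, grey points were not called, and the 10 genes with the largest named change each way carry their symbols.

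The 10 genes named as furthest higher in M5 had log2 changes of 3.31 to 5.04. Tac2, the neurokinin B precursor gene (chromosome 10, 127724478 to 127731768 of mm10, plus strand), had levels of 13, 6.37 and 4.57 in the B5 libraries and 396, 260 and 197 in the M5 libraries. Every M5 library lay above every B5 library, by 35.7-fold between the means (log2 change 5.04 ± 0.47 SE, adjusted p = 5.7e-09). R5 libraries held 1.52, 1.56 and 1.25, so Tac2 stood lowest with RA alone. Mab21l2, a gene of eye and body wall development (chromosome 3, 86545581 to 86548629, minus strand, within Lrba on the other strand), had levels of 71.6, 15.3 and 21.6 in B5 and 727, 1065 and 955 in M5. Its M5 libraries were 25.3-fold higher with no overlap (log2 change 4.92 ± 0.79 SE, adjusted p = 4e-05). Nr1h5, which encodes a nuclear receptor, was near the bottom of the range in B5 (1.16, 2.98 and 2.38) and rose to 44.9, 70.8 and 60.5 in M5, with an adjusted p of 2.1e-10.

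Phox2a, a homeodomain factor of noradrenergic and cranial motor neurons, showed the tightest replicates of the leading genes. Its B5 levels were 50.6, 72.3 and 55.3 and its M5 levels 608, 609 and 580, a log2 change of 3.33 ± 0.23 SE (adjusted p = 4.2e-12). R5 libraries held 88.8, 91.4 and 86.6, so B5 lay below RA alone and M5 above both. Crhbp, which encodes the corticotropin-releasing hormone binding protein, rose from 2.37, 1.52 and 2.67 to 36.7, 38.1 and 42.6 (log2 change 3.67 ± 0.54 SE, adjusted p = 9.6e-06). Npy1r, a neuropeptide Y receptor gene, rose from 18.9, 18.6 and 8.7 to 164, 219 and 174 (adjusted p = 1.1e-07). Neither gene's B5 libraries reached its M5 libraries. Gdf2, which encodes the ligand BMP9, went from 5.26, 1.49 and 2.14 to 26.8, 60.1 and 27.3 (adjusted p = 8.2e-06). Fitm1, a lipid droplet gene, and Hspb7, a small heat shock protein gene of heart, completed the 10 with Tbx20, at log2 changes of 3.66 and 3.44. Fitm1, Phox2a and Mab21l2 overlap a gene on the opposite strand, and so do Cp, Hes5, Fam181a, 1700011H14Rik and Rfx4, given next. Whether reads were counted by strand is not given in the sources used here, so those values are uncertain.

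The 10 genes named as furthest lower in M5 had log2 changes of -5.86 to -4.64. Cp, the ceruloplasmin gene (chromosome 3, 19957054 to 20009145, plus strand), had levels of 1575, 513 and 1258 in B5 and 12.8, 3.82 and 76.4 in M5, 36.0-fold lower between the means (log2 change -5.86 ± 0.82 SE, adjusted p = 5.1e-06). Prdm13, a factor that directs dorsal progenitors toward inhibitory fates (chromosome 4, 21677480 to 21685963, minus strand), went from 836, 381 and 1189 to 26.6, 3.44 and 100.0 (log2 change -4.97 ± 0.81 SE, adjusted p = 4.8e-05). In both genes M5 replicate 2 was lowest and M5 replicate 3 highest, and no M5 library reached a B5 library. Pax3, a paired-box factor of the dorsal neural tube and somites (chromosome 1, 78101267 to 78197134, minus strand), had 2790, 1523 and 7514 in B5 and 71.3, 36.8 and 493 in M5 (log2 change -4.84 ± 0.89 SE, adjusted p = 0.00021). Rfx4, a winged-helix factor of the neural tube (chromosome 10, 84756062 to 84906538, plus strand), had 2814, 1388 and 2276 in B5 and 130, 17.7 and 235 in M5 (log2 change -4.64 ± 0.74 SE, adjusted p = 3.5e-05). No library of M5 reached B5 for either. Also among the leading fallen genes were Hes5 and Hes3 of the Notch pathway, the proneural gene Neurog1, the dorsal homeobox gene Msx3, Fam181a and 1700011H14Rik, with log2 changes of -5.44, -4.91, -4.73, -4.81, -4.77 and -4.66. Msx3 lost its call without M5 replicate 2 (adjusted p = 0.053, range over its alternatives 5e-06 to 0.053).

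**Figure D2:**
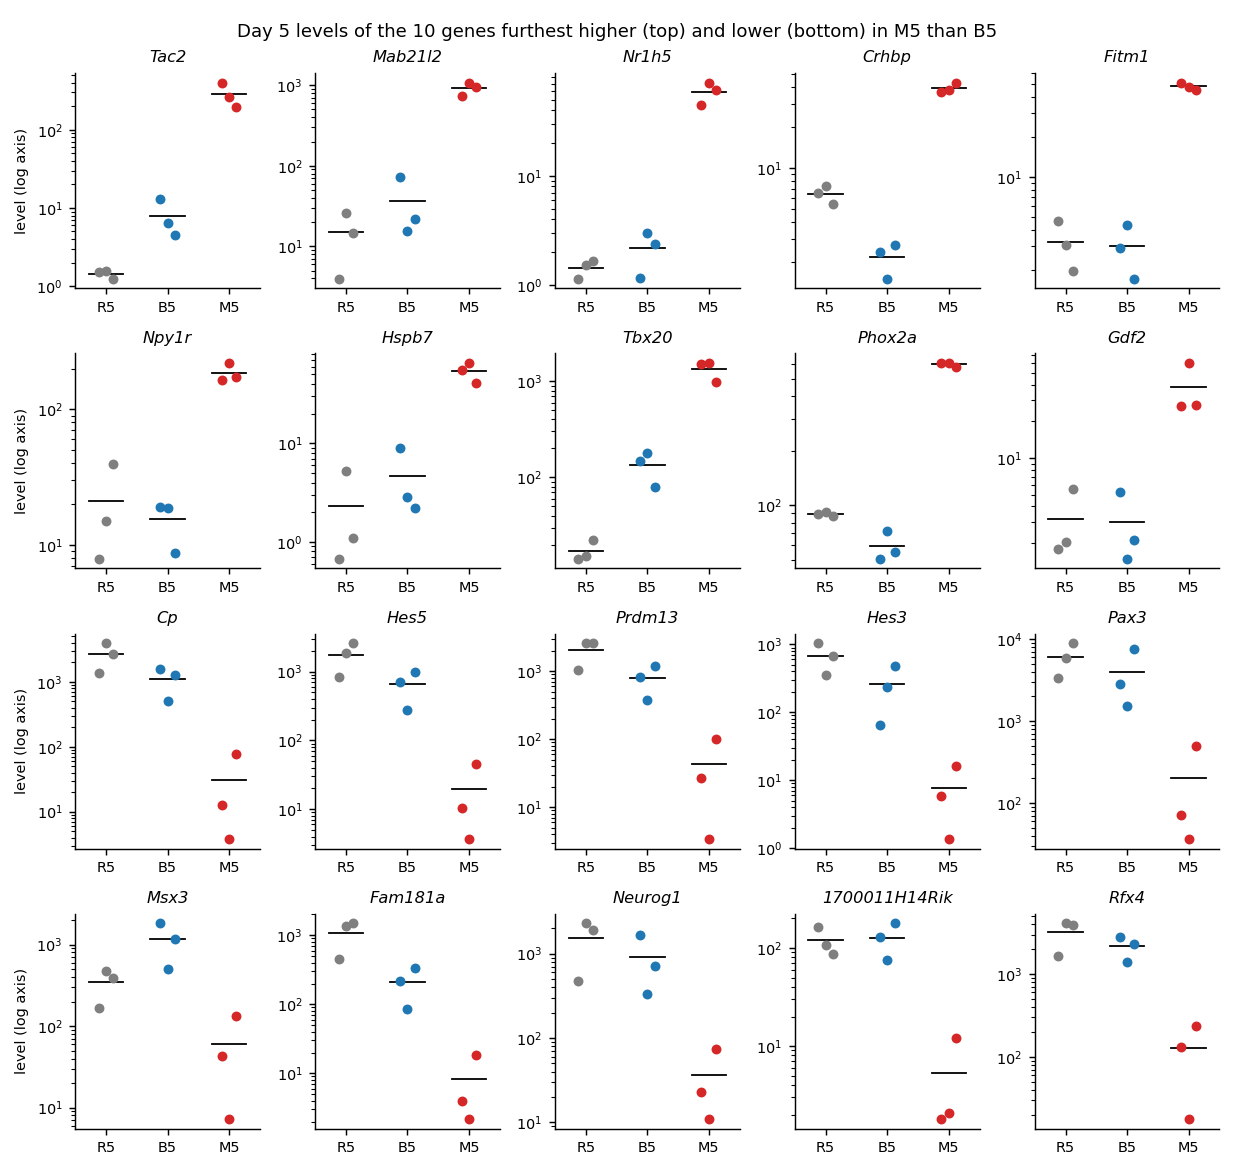
Levels (log axis) of the 10 genes furthest higher in M5 than B5 (upper panels) and the 10 furthest lower (lower panels), 1 point per library and a line at the mean of 3, for RA alone (R5), sequential BMP4 (B5) and combined BMP4 (M5). No M5 point overlaps a B5 point, by the rule that chose these genes, and M5 replicate 2 is the lowest M5 library in most of the fallen genes.

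Of 18 measured immediate BMP targets, Bambi was called higher in M5 and Msx3 lower, with a median change of 0.08. These 2 calls were 11.1% of the list, beside 17.8% of all genes. Just 1 of these calls was left without M5 replicate 1, M5 replicate 3, B5 replicate 2 or B5 replicate 3, and neither was left without M5 replicate 2. Id1, the standard readout of SMAD signalling, had levels of 5498, 3575 and 4364 in B5 and 3569, 3812 and 4564 in M5, with R5 at 1621, 1807 and 1711. M5 and B5 overlapped for Id1 and both lay above RA alone. The M5 to B5 change in Id1 was -0.16 (95% interval -0.92 to 0.61, adjusted p = 0.83). Id3 had 11568, 6877 and 13662 in B5 and 4158, 4998 and 7058 in M5, and Msx2 had 2112, 1185 and 2487 in B5 and 964, 1309 and 1763 in M5. Both pairs of groups overlapped, with changes of -0.96 (95% interval -1.84 to -0.08, adjusted p = 0.12) and -0.49 (95% interval -2.68 to 1.69, adjusted p = 0.81).

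Bambi, Smad6 and Smad7, targets that inhibit the pathway, had every M5 library above every B5 library, and Bambi alone of them was called. Non-overlap in either direction held in 7 of the 18 immediate targets and in 31.6% of all genes. Bambi, a pseudoreceptor that blocks BMP and activin receptors, had levels of 1945, 1342 and 1266 in B5 and 3488, 4005 and 3803 in M5, with R5 at 249, 383 and 303. All M5 libraries lay above all B5 libraries (log2 change 1.33 ± 0.46 SE, adjusted p = 0.04). The call for Bambi was lost without any 1 of M5 replicates 1, 2 and 3 (adjusted p = 0.083, 0.12 and 0.075) or of B5 replicates 2 and 3 (0.095 and 0.15), and ran from 0.0014 to 0.15 over the alternatives. Smad6, an inhibitory SMAD, had 2239, 1389 and 1584 in B5 and 2887, 3248 and 3277 in M5 without overlap (log2 change 0.88, 95% interval 0.03 to 1.73, adjusted p = 0.15). Smad7, the other inhibitory SMAD, had 1765, 1375 and 947 in B5 and 2986, 2496 and 2132 in M5, also without overlap and not called (adjusted p = 0.22).

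Among 28 measured BMP ligands, receptors, transducers and antagonists, 1 was higher and 4 were lower, with a median change of -0.06. These 5 calls were 17.9% of the list, beside 17.8% of all genes. Gdf7, a roof plate ligand, had levels of 238, 90.5 and 150 in B5 and 6.29, 15.4 and 30.9 in M5 (log2 change -3.25 ± 0.63 SE, adjusted p = 0.00041). Bmp7, a dorsal ectoderm ligand, had 1685, 1063 and 1952 in B5 and 513, 620 and 1014 in M5 (adjusted p = 0.0049). No library of M5 reached B5 for either ligand. The secreted antagonist noggin fell as well, Nog standing at 1437, 1107 and 1989 in B5, 179, 221 and 415 in M5 and 526, 548 and 551 in R5 (log2 change -2.53 ± 0.79 SE, adjusted p = 0.024). Grem1, the gremlin antagonist gene, had 471, 442 and 274 in B5 and 120, 52.3 and 102 in M5 (adjusted p = 0.046) and was named after its values were seen. Leaving out M5 replicate 1, M5 replicate 2, B5 replicate 2 or B5 replicate 3 lowered the 5 calls of this list to 1, 2, 3 or 1. The Bmp7 call was lost without M5 replicate 1 or B5 replicate 3, and its adjusted p ran from 2.3e-05 to 0.062 over the alternatives. The Nog call was lost without M5 replicate 1, M5 replicate 2 or B5 replicate 3, and its adjusted p ran from 0.0009 to 0.11 over the alternatives. The Grem1 call was lost without M5 replicate 1, M5 replicate 2, M5 replicate 3, B5 replicate 1, B5 replicate 2 or B5 replicate 3, and its adjusted p ran from 0.00056 to 0.2 over the alternatives.

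**Figure D3:**
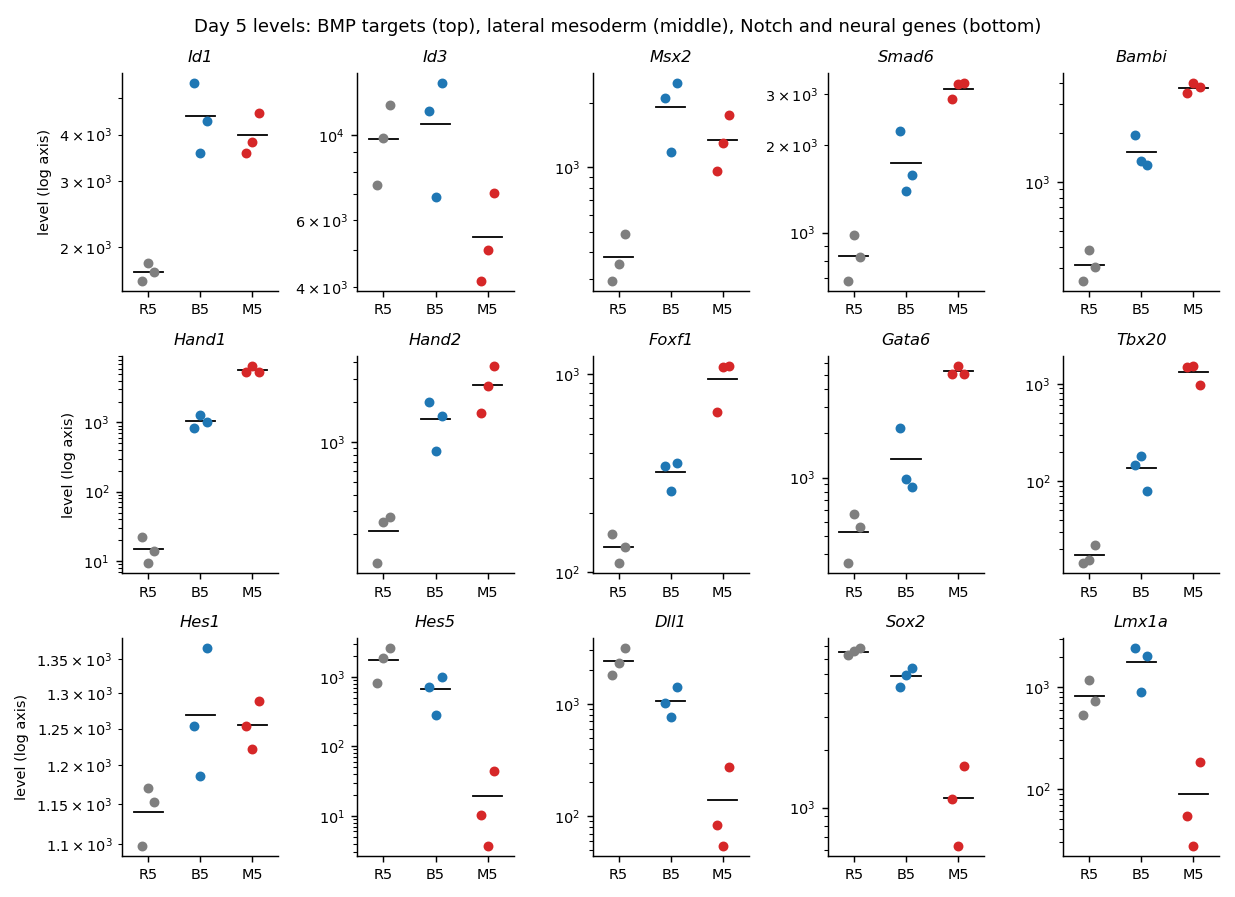
Levels (log axis, scaled to each gene) in the 3 R5, 3 B5 and 3 M5 libraries, with a line at each mean, for BMP targets (top), lateral mesoderm factors (middle) and Notch and neural genes (bottom). Id1 overlaps between B5 and M5, Smad6 and Bambi do not, Hand1 steps up from R5 to B5 to M5, and Hes1 stays between 1098 and 1366 in all 9 libraries while Hes5 falls.

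Of 16 lateral plate mesoderm factors 4 were called higher in M5, beside 8.57% of all genes, and 12 were not called. The list's median change was 1.17, beside -0.01 over all genes. Tbx20, a T-box factor of the heart fields (chromosome 9, 24718138 to 24774303, minus strand), had levels of 147, 180 and 78.9 in B5 and 1493, 1539 and 979 in M5, 9.9-fold higher (log2 change 3.35 ± 0.63 SE, adjusted p = 0.00027). R5 libraries held 14.3, 15.4 and 22.1, so B5 lay between R5 and M5. Gata6, a zinc finger factor of mesendoderm, had 2188, 982 and 868 in B5 and 5039, 5774 and 5061 in M5 (log2 change 2.1 ± 0.61 SE, adjusted p = 0.014). Gata4, its partner in heart development, had 1534, 902 and 780 in B5 and 3878, 4371 and 3474 in M5 (adjusted p = 0.019). Foxf1, a forkhead factor of splanchnic mesoderm, had 343, 258 and 356 in B5 and 641, 1084 and 1103 in M5 (adjusted p = 0.038). All 3 were free of overlap. Leaving out M5 replicate 2, B5 replicate 2 or B5 replicate 3 lowered the list's 4 calls to 1, 2 or 1. The Gata6 call was lost without M5 replicate 2 or B5 replicate 3, and its adjusted p ran from 0.0001 to 0.087 over the alternatives. The Gata4 call was lost without M5 replicate 1, M5 replicate 2, B5 replicate 2 or B5 replicate 3, and its adjusted p ran from 0.00027 to 0.098 over the alternatives. The Foxf1 call was lost without M5 replicate 2, M5 replicate 3, B5 replicate 1, B5 replicate 2 or B5 replicate 3, and its adjusted p ran from 0.0012 to 0.13 over the alternatives.

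Several lateral factors, all above R5 in both BMP4 regimens, were not called between them. Hand1, a bHLH factor of lateral and extraembryonic mesoderm (chromosome 11, 57828705 to 57832818, minus strand), had levels of 824, 1266 and 1028 in B5, 5262, 6606 and 5277 in M5 and 22, 9.23 and 14.1 in R5. Its M5 libraries were 5.5-fold above B5 without overlap, at an adjusted p of 0.055, which ran from 0.0029 to 0.15 over the alternatives. Hand1 was called under 7 alternatives and not under the rest. Among the 7 were the compared libraries alone (adjusted p = 0.0029), quantile normalization (adjusted p = 0.041) and the authors' deposited test (false discovery rate 0.0042). Hand2, the related factor of limb and heart, overlapped between the regimens, with 2012, 845 and 1562 in B5 and 1659, 2636 and 3754 in M5 (adjusted p = 0.5). Gata5 overlapped too, with 1288, 980 and 1587 in B5 and 1312, 1964 and 2753 in M5 (log2 change 0.61, 95% interval -1.16 to 2.38, adjusted p = 0.69). Tbx5, a forelimb and heart field factor, had 640, 237 and 325 in B5 and 703, 1122 and 1501 in M5 (adjusted p = 0.13).

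Some cardiac muscle and vascular genes were higher as well. Tnni1, the slow troponin I gene, had levels of 54.4, 27.0 and 23.7 in B5 and 107, 191 and 248 in M5 (log2 change 2.36 ± 0.52 SE, adjusted p = 0.0015), and Ryr2, the cardiac calcium release channel gene, rose with it (log2 change 1.51, adjusted p = 6.2e-05). These 2 were the called members of 13 cardiac muscle genes (15.4% beside 17.8% of all genes), whose median change was 0.62. In the endothelium and blood list 6 of 13 were higher, beside 8.57% of all genes, with a median of 1.25. Pecam1, an endothelial junction protein gene, had 83.9, 113 and 40.3 in B5 and 626, 607 and 276 in M5 (log2 change 2.68 ± 0.52 SE, adjusted p = 0.00042). Undifferentiated mESCs of the series held more Pecam1 (1207, 1163 and 2402), and which cells carried it at day 5 was not tested. Tek, the angiopoietin receptor gene, had 158, 190 and 168 in B5 and 411, 474 and 321 in M5 (adjusted p = 0.0031). B5 and M5 did not overlap for Pecam1 or Tek. Undifferentiated mESCs held 260, 266 and 419 of Tek, overlapping M5, and which cells carried Tek at day 5 was likewise not tested. Tal1 and Kdr, an early blood factor and the VEGF receptor that marks haemangioblasts, were not called, with B5 levels of 53.4, 72.0 and 137 and M5 levels of 82.8, 89.3 and 115 for Tal1 and adjusted p-values of 0.79 and 0.67. Leaving out M5 replicate 2 or B5 replicate 2 lowered the 6 endothelial calls to 3 each.

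Of 14 paraxial mesoderm genes 4 were lower, beside 9.23% of all genes, and 10 were not called, with a median of -1.05. Pax9, a sclerotome factor, had levels of 70.1, 78.4 and 161 in B5 and 5.59, 2.98 and 7.9 in M5 (log2 change -3.98 ± 0.44 SE, adjusted p = 1e-07). Aldh1a2, the enzyme that makes RA in somites, had 1798, 1109 and 2440 in B5 and 245, 336 and 764 in M5 (log2 change -2.09 ± 0.46 SE, adjusted p = 0.0015). The groups did not overlap for either gene. Pax3, given above, and Uncx were the other fallen members. The Uncx call was lost without M5 replicate 1, M5 replicate 2, B5 replicate 1 or B5 replicate 3, and its adjusted p ran from 0.00014 to 0.13 over the alternatives. Meox1, a dermomyotome factor, had 1588, 2043 and 5095 in B5 and 699, 870 and 1662 in M5 and was not called (adjusted p = 0.17).

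Of 20 surface ectoderm genes 9 rose in M5 and 2 fell, with a median change of 1.05. These calls were 55.0% of the list, beside 17.8% of all genes. Krt8, a simple epithelial keratin gene, had levels of 1496, 1109 and 1238 in B5 and 3126, 3345 and 2783 in M5 (log2 change 1.27 ± 0.20 SE, adjusted p = 2.8e-05). Grhl3, a factor of epidermal closure, had 44.9 ± 4.47 (SD, n = 3) in B5 and 145, 168 and 143 in M5 (log2 change 1.74 ± 0.31 SE, adjusted p = 0.00013). Trp63, the master factor of stratified epithelium, had 117, 67.0 and 46.3 in B5 and 298, 276 and 366 in M5 (log2 change 2.11 ± 0.48 SE, adjusted p = 0.0021). The 3 genes shared the pattern of 3 tight M5 libraries above B5, and their R5 libraries overlapped those of B5. The fallen members were Tfap2b and Tfap2c, AP-2 factors expressed also in neural crest, with log2 changes of -2.98 and -1.27. Tfap2a, another AP-2 factor, overlapped (adjusted p = 0.62). Leaving out M5 replicate 1, M5 replicate 2 or B5 replicate 3 lowered the 11 calls to 7 each. The Tfap2b call was lost without M5 replicate 1, M5 replicate 2, B5 replicate 1 or B5 replicate 3, and its adjusted p ran from 0.00078 to 0.13 over the alternatives. The Tfap2c call was lost without M5 replicate 2, and its adjusted p ran from 0.00023 to 0.063 over the alternatives. Tfap2c was named after its values were seen.

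Mesenchyme and matrix genes held 3 called members of 19, all higher, a share of 15.8% beside 17.8% of all genes, with a median of 0.92. Fn1, the fibronectin gene, had levels of 15044, 10371 and 6886 in B5 and 25108, 25554 and 18267 in M5 (log2 change 1.15 ± 0.27 SE, adjusted p = 0.0033). Snai1 and Twist2, factors of epithelial-mesenchymal transition and of dermis, were the others. The Snai1 call was lost without M5 replicate 2, M5 replicate 3 or B5 replicate 3, and its adjusted p ran from 0.0026 to 0.1 over the alternatives. The Twist2 call was lost without M5 replicate 2, M5 replicate 3, B5 replicate 2 or B5 replicate 3, and its adjusted p ran from 0.00043 to 0.11 over the alternatives. Leaving out M5 replicate 2 or B5 replicate 3 lowered these 3 calls to 1 or 0. With B5 replicate 3 left out Fn1 had an adjusted p of 0.057, in a range of 4e-06 to 0.057. In the mesothelium list 1 of 8 was called (12.5%), Bnc1 (adjusted p = 0.042). That call was lost without any 1 library other than B5 replicate 1, without which the list held 3. Its adjusted p ran from 0.00031 to 0.19 over the alternatives.

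Pan-neural progenitor genes fell in M5, 11 of 16 called lower, beside 9.23% of all genes, with a median change of -2.22. All 16 estimates were negative. Sox2, a SoxB1 factor of neural and pluripotent cells, had levels of 4275, 4976 and 5369 in B5 and 1103, 630 and 1652 in M5 (log2 change -2.21 ± 0.30 SE, adjusted p = 3.9e-06). R5 libraries held 6284, 6588 and 6854, so B5 lay below RA alone and M5 below both. Sox1, the neural plate member of the same family, had 429, 577 and 893 in B5 and 74.7, 15.4 and 144 in M5, with R5 at 2205, 1735 and 1660 (log2 change M5 to B5 -3.42 ± 0.56 SE, adjusted p = 4.9e-05). Pax6, a paired-box factor of intermediate progenitors, had 1217, 978 and 2599 in B5 and 109, 82.5 and 302 in M5 (log2 change -3.38 ± 0.59 SE, adjusted p = 0.00011). In all 3 genes M5 replicate 3 was the highest M5 library, still below the lowest of B5. Irx3, expressed across caudal neural tube, was not called, with 2557, 1973 and 8791 in B5 and 1136, 2065 and 3346 in M5 (adjusted p = 0.37).

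Factors of the dorsal progenitor domains had the lowest median of any list, -3.12, with 9 of 14 called lower, beside 9.23% of all genes. Zic1, Zic2 and Zic5, zinc finger factors of dorsal neural tube, were among them. Zic2 had levels of 3998, 2678 and 3832 in B5, 280, 149 and 688 in M5 and 2396, 3057 and 2679 in R5 (log2 change -3.49 ± 0.37 SE, adjusted p = 4.7e-08). Zic5 had 499, 339 and 405 in B5 and 35.2, 13 and 87.6 in M5 (adjusted p = 5e-07). Zic1, whose transcript overlaps Zic4 on the opposite strand, had 7510, 2469 and 7549 in B5 and 139, 81.7 and 806 in M5 (adjusted p = 0.00012). Every M5 library lay below every B5 and every R5 library for these 3 genes. Pax7, a dorsal paired-box factor, had 283, 235 and 912 in B5 and 28.5, 26.3 and 137 in M5 (adjusted p = 0.00037).

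Of 9 measured proneural bHLH genes 6 were lower, beside 9.23% of all genes, with a median of -2.28. Neurog1, which drives dI2 and sensory neurons (chromosome 13, 56250478 to 56252163, minus strand), had levels of 1679, 336 and 720 in B5, 23.1, 11 and 74.8 in M5 and 473, 2280 and 1901 in R5 (log2 change -4.73 ± 0.97 SE, adjusted p = 0.00078). Olig3, which marks the dI1 to dI3 progenitors, had 1320, 335 and 765 in B5, 25.6, 6.3 and 125 in M5 and 115, 483 and 375 in R5 (log2 change -4.59 ± 1.03 SE, adjusted p = 0.0018). B5 replicate 1 was highest and B5 replicate 2 lowest for both genes, and no M5 library reached them. Atoh1, the dI1 proneural factor, had low levels in both regimens and was not called, with 19.0, 1.77 and 2.59 in B5 and 1.1, 1.08 and 1.36 in M5 (adjusted p = 0.41).

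Of 18 measured Notch pathway genes 9 were called lower, beside 9.23% of all genes, with a median of -1.05. Notch signalling keeps neural progenitors dividing: the ligand DLL1 on one cell releases the receptor's intracellular part in its neighbour, which joins the DNA-binding protein RBPJ to switch on Hes5. Hes5 (chromosome 4, 154960923 to 154962371, plus strand) had levels of 704, 280 and 998 in B5, 10.4, 3.7 and 44.7 in M5 and 827, 1842 and 2578 in R5 (log2 change -5.44 ± 0.85 SE, adjusted p = 2.6e-05). M5 was 33.7-fold below B5 between the means, and no libraries overlapped. Lfng, a glycosyltransferase that modifies the receptor and is itself a Notch target, had 347, 230 and 407 in B5 and 48.7, 15.7 and 70.0 in M5 (log2 change -3.04 ± 0.38 SE, adjusted p = 8.8e-07). The promoters of these called Notch targets are shown because both hold the RBPJ core motif GTGGGAA. They are RefSeq windows of build GRCm38.p6, 250 bases before to 50 after the start, with the motif on either strand (GTGGGAA or TTCCCAC) in capitals, and were chosen after the values were seen. Hes5 lies at chr4:154960673-154960972 and Lfng at chr5:140607091-140607390, both on the plus strand.
Hes5: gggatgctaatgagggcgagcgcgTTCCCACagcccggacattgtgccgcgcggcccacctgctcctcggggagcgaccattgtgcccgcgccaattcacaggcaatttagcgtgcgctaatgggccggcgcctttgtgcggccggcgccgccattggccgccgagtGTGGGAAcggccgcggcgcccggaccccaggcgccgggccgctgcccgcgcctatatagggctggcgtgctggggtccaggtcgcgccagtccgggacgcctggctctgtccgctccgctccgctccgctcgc
Lfng: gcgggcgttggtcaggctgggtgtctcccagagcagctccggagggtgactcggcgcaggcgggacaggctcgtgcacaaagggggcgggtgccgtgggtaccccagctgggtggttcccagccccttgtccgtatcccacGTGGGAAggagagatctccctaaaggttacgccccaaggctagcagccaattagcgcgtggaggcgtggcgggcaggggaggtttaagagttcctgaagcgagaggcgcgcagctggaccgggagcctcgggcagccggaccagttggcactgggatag
Hes5 held the motif 2 times, first bases 226 and 83 bases before the start in opposite orientations, and Lfng 1 time, 109 bases before it. Of 32851 promoter windows, 6.38% held the motif at least once and 0.256% at least 2 times. Of the 18 measured Notch genes 13 matched a window, and 3 of these held it: Hes5, Lfng and Hey2, the last not called. A match describes letters and is not evidence of binding.

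The ligand genes Dll1 and Dll3 and the receptor gene Notch1 were among the 9 called. The Dll3 call was lost without M5 replicate 1, M5 replicate 2 or B5 replicate 3, and its adjusted p ran from 0.00023 to 0.086 over the alternatives. Dll1 had levels of 1025, 768 and 1415 in B5 and 83.9, 54.4 and 276 in M5 (log2 change -3.25 ± 0.48 SE, adjusted p = 1.2e-05). Notch1 had 1933, 1335 and 1855 in B5 and 709, 680 and 1002 in M5 (log2 change -1.10 ± 0.29 SE, adjusted p = 0.0065). Nrarp, a feedback inhibitor, had 657, 426 and 880 in B5 and 108, 101 and 251 in M5 (adjusted p = 0.0013). B5 and M5 did not overlap for Dll1, Notch1 or Nrarp. Notch1, Nrarp and Dll3 were named after their values were seen. Hes1, a Hes gene expressed in many lineages, overlapped between the regimens, with 1253, 1186 and 1366 in B5, 1254, 1222 and 1288 in M5 and 1098, 1170 and 1152 in R5. Its change was -0.01 (95% interval -0.32 to 0.29), which turned positive under quantile normalization and median centring, and it too was named after its values were seen.

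Of 11 measured roof plate genes 5 were lower in M5, beside 9.23% of all genes, with a median of -1.91. Lmx1a, the factor that specifies the roof plate, had levels of 2422, 889 and 2012 in B5, 54.0, 27.5 and 184 in M5 and 533, 1189 and 740 in R5 (log2 change M5 to B5 -4.62 ± 0.88 SE, adjusted p = 0.00031). M5 was below R5 as well (log2 change -3.55, adjusted p = 0.0014), while B5 against R5 was not called (log2 change 1.07, adjusted p = 0.53). Over all genes M5 differed from R5 in 4975 (44.3%) and B5 from R5 in 672 (5.99%), and these comparisons share the R5 libraries. Wnt3a, a dorsal midline ligand gene, had 849, 537 and 835 in B5, 61.1, 11.4 and 148 in M5 and 624, 980 and 741 in R5 (log2 change -3.90 ± 0.56 SE, adjusted p = 8.2e-06). Wnt1, the second midline Wnt ligand gene, had 3314, 589 and 1835 in B5 and 63.6, 19.7 and 307 in M5 (log2 change -4.36 ± 1.30 SE, adjusted p = 0.017). Its call was lost without M5 replicate 1, M5 replicate 2, B5 replicate 1 or B5 replicate 3 (adjusted p = 0.058, 0.13, 0.07 and 0.068), with a range of 2.5e-05 to 0.13 over the alternatives. Wnt1 was named after its values were seen. The roof plate factor Msx1 overlapped and was not called, with 6083, 3118 and 15279 in B5 and 814, 1642 and 4115 in M5 (adjusted p = 0.13).

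Most genes of postmitotic neurons were not called, and 9.23% of all genes were called lower. Of 12 dI1 to dI3 interneuron factors 3 were lower (median -1.10), of 16 dI4 to dI6 factors 6 (median -1.11) and of 20 pan-neuronal genes 3 (median -1.08). Pou4f1, a POU factor of dI1 to dI3 and sensory neurons, had levels of 525, 297 and 433 in B5 and 71.1, 52.6 and 129 in M5 (log2 change -2.36 ± 0.45 SE, adjusted p = 0.00033). Lbx1, which marks dI4 to dI6, had 85.1, 57.4 and 92.1 in B5 and 15.7, 2.15 and 18.5 in M5 (log2 change -2.95 ± 0.61 SE, adjusted p = 0.00087). Ina, the internexin gene of the axonal cytoskeleton, had 744, 377 and 241 in B5 and 124, 112 and 137 in M5 (log2 change -1.71 ± 0.36 SE, adjusted p = 0.00097). M5 lay below B5 in every library of these 3 genes. Without M5 replicate 2 the dI4 to dI6 count was 3, and without M5 replicate 3 the pan-neuronal count was 5.

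Neural crest held 2 lower members of 12, Tfap2b and Ednrb (16.7% called beside 17.8% of all genes), with a median of -1.16. Foxd3, an early crest and dI2 factor, had levels of 1576, 496 and 184 in B5, 260, 51.2 and 167 in M5 and 11.4, 42.2 and 9.8 in R5 and was not called (adjusted p = 0.099). Sox10, the later crest factor, had 399, 122 and 232 in B5 and 60.1, 43.2 and 171 in M5 (adjusted p = 0.19). B5 and M5 overlapped for both. The 2 crest calls were each lost, giving a count of 0, without M5 replicate 1, M5 replicate 2, B5 replicate 1 or B5 replicate 3. Over the alternatives the adjusted p ran from 0.00078 to 0.13 for Tfap2b and from 0.00076 to 0.25 for Ednrb. In the ventral list Gli1, a direct target of hedgehog signalling, rose from 169, 216 and 133 to 727, 610 and 450 (log2 change 1.78 ± 0.41 SE, adjusted p = 0.0023), and Nkx6-1, a ventral progenitor factor, fell from 8.16, 11.7 and 24.7 to 2.22, 4.09 and 8.08 (adjusted p = 0.044). The Nkx6-1 call was lost without M5 replicate 1, M5 replicate 2, B5 replicate 2 or B5 replicate 3, and its adjusted p ran from 0.0025 to 0.28 over the alternatives.

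Hox genes set position along the body axis. Of 15 genes of paralogue groups 1 to 5, 3 were lower (median -1.27), and all 15 estimates were negative. Of 12 in groups 6 to 9, 3 were lower and 1 higher (median -1.24), and of 7 measured in groups 10 to 13, 2 were higher (median 1.06). Hoxb9 had levels of 12435, 7799 and 33764 in B5, 732, 1162 and 5198 in M5 and 30327, 45616 and 78183 in R5 (log2 change -3.18 ± 0.68 SE, adjusted p = 0.0011). Hoxd4 had 823, 541 and 2187 in B5 and 105, 146 and 460 in M5 (log2 change -2.37 ± 0.59 SE, adjusted p = 0.0048). Number 3 was the highest library of each group in both genes. Hoxd9 went the opposite way, with 54.9, 57.2 and 79.6 in B5 and 240, 379 and 394 in M5 (log2 change 2.37 ± 0.40 SE, adjusted p = 6.8e-05), and so did Hoxa10, with 62.7, 26.5 and 19.2 in B5 and 146, 214 and 156 in M5 (log2 change 2.38 ± 0.57 SE, adjusted p = 0.0033). Hoxd3 and Hoxd4 overlap on the same strand in the annotation, so how their reads were split is uncertain. The counts moved with single libraries: groups 1 to 5 held 0, 6, 6 and 0 calls without M5 replicate 1, M5 replicate 3, B5 replicate 2 and B5 replicate 3, and groups 6 to 9 held 2 without M5 replicate 1, M5 replicate 2, B5 replicate 1 or B5 replicate 3 and 7 without M5 replicate 3. Groups 10 to 13 held 1 without M5 replicate 1, M5 replicate 2, B5 replicate 1 or B5 replicate 2. Hoxd4 had an adjusted p of 0.051 without M5 replicate 1 and 0.072 without B5 replicate 3, in a range of 1.9e-05 to 0.072.

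RA was given at the same dose to both groups. RA response genes moved both ways, 3 of 21 higher and 5 lower with a median of -0.61. The called share was 38.1%, beside 17.8% of all genes. Crabp2, which carries RA to its nuclear receptors, had levels of 7107, 7502 and 26834 in B5, 1262, 1737 and 4692 in M5 and 29371, 21129 and 37076 in R5 (log2 change -2.37 ± 0.60 SE, adjusted p = 0.0054). Stra8, an RA-induced gene best known in germ cells, had 1172, 1187 and 1658 in B5 and 319, 338 and 443 in M5 (log2 change -1.86 ± 0.45 SE, adjusted p = 0.0033). Rarg, an RA receptor gene, rose from 948, 1430 and 792 to 2826, 2544 and 1857 (log2 change 1.21 ± 0.31 SE, adjusted p = 0.0056). Cyp26a1, the enzyme that clears RA, overlapped, with 626, 760 and 1771 in B5 and 354, 468 and 734 in M5 (adjusted p = 0.29). The 8 calls fell to 4, 4, 5 and 3 without M5 replicate 1, M5 replicate 2, B5 replicate 2 and B5 replicate 3. Crabp2 had adjusted p-values of 0.051 without M5 replicate 1 and 0.083 without B5 replicate 3, and Rarg 0.056 without B5 replicate 3. Over all alternatives these ran from 5.7e-06 to 0.083 for Crabp2 and from 5.5e-05 to 0.056 for Rarg.

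In the WNT pathway 7 of 31 genes were lower and 3 higher (median -0.23), 32.3% called beside 17.8% of all genes. Fzd10, a receptor gene of dorsal neural tube, had levels of 2850, 2771 and 5580 in B5 and 363, 394 and 1374 in M5 (log2 change -2.60 ± 0.42 SE, adjusted p = 3.9e-05). Axin2, a general target of WNT signalling, had 3697, 3149 and 4472 in B5 and 1350, 1601 and 2333 in M5 (log2 change -1.12 ± 0.24 SE, adjusted p = 0.0012). Neither overlapped. The 3 higher genes were Wnt6, Wnt7a and the secreted antagonist gene Sfrp1, with log2 changes of 1.08, 1.47 and 1.73. Wnt7a and Sfrp1 were named after their values were seen. The Wnt7a call was lost without M5 replicate 3, B5 replicate 2 or B5 replicate 3, and its adjusted p ran from 0.00013 to 0.073 over the alternatives. The Sfrp1 call was lost without M5 replicate 1, M5 replicate 2, B5 replicate 2 or B5 replicate 3, and its adjusted p ran from 1.6e-05 to 0.12 over the alternatives. Without B5 replicate 3 the list held 5 calls. In the FGF pathway 5 of 22 were lower and 1 higher (median -0.30), 27.3% called beside 17.8% of all genes. Without M5 replicate 2 or B5 replicate 3, 3 of these calls were left. Fgf15, a forebrain and neural tube ligand gene, had 268, 166 and 226 in B5 and 68.2, 16.7 and 78.8 in M5 (adjusted p = 0.0013), and Fgf10, the mesenchymal ligand gene of limb and lung, 151, 116 and 143 in B5 and 207, 282 and 354 in M5 (adjusted p = 0.013). The Fgf10 call was lost without M5 replicate 3 or B5 replicate 2, and its adjusted p ran from 0.0012 to 0.068 over the alternatives.

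Markers of earlier or other cells were called about as often as all genes (17.8%), or less, in the pluripotency and caudal lists. All 20 pluripotency genes had higher estimates in M5 (median 1.17), but 2 were called, Prdm14 (adjusted p = 0.022) and Tcl1 (adjusted p = 0.039). The Prdm14 call was lost without M5 replicate 1, M5 replicate 2, B5 replicate 2 or B5 replicate 3, and its adjusted p ran from 0.0032 to 0.13 over the alternatives. The Tcl1 call was lost without M5 replicate 1, M5 replicate 2, B5 replicate 1 or B5 replicate 3, and its adjusted p ran from 0.009 to 0.2 over the alternatives. The mean log2 level of the list was 6.67, 6.89 and 5.58 in B5, 8.18, 7.6 and 6.97 in M5 and 6.08, 5.79 and 4.94 in R5. Set against R5, 16 of the 20 were called higher in M5 (21.0% of all genes) and 1 in B5 (2.76% of all genes). Those comparisons share the R5 libraries. Pou5f1, which encodes OCT4, had levels of 271, 412 and 106 in B5, 863, 651 and 346 in M5 and 202, 116 and 64.5 in R5, overlapping and not called (adjusted p = 0.21). Without M5 replicates 1, 2 and 3 in turn the pluripotency calls were 0, 0 and 4, and without B5 replicates 1, 2 and 3 they were 1, 1 and 0. In the compared libraries alone they were 10 with a replicate block and 2 without it, and with array weights 9. Of 17 caudal progenitor genes 2 were lower and 1 higher (median -0.65): Sp5, a WNT-induced factor, fell with Wnt3a, from 258, 402 and 510 to 70.5, 67.8 and 129 (adjusted p = 0.0014), and Evx1 rose from 2.55, 7.92 and 7.77 to 19.3, 27.4 and 53.1 (adjusted p = 0.0093). Of 11 endoderm genes 1 was higher and 3 were lower (median 0.58), with Gsc rising (adjusted p = 0.0023) and Foxa1 and Cxcr4 among the fallen (adjusted p = 0.0023 and 0.039). The called share of the endoderm list was 36.4%, beside 17.8% of all genes. The Evx1 call was lost without M5 replicate 3 or B5 replicate 1, and its adjusted p ran from 0.0011 to 0.061 over the alternatives. The Cxcr4 call was lost without M5 replicate 1, M5 replicate 2, B5 replicate 1 or B5 replicate 3, and its adjusted p ran from 0.0024 to 0.22 over the alternatives. The part of these markers in the other differences was not tested.

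Stress and growth genes were also measured. Of 11 p53 targets 6 were lower (median -0.49), beside 9.23% of all genes. They were led by Zmat3 with levels of 5224, 5869 and 5426 in B5 and 3461, 3099 and 3415 in M5 (log2 change -0.73 ± 0.09 SE, adjusted p = 7.5e-07). Cdkn1a, the p21 inhibitor gene, had 2790, 2286 and 2579 in B5 and 1464, 1218 and 1462 in M5 (log2 change -0.89 ± 0.12 SE, adjusted p = 2.7e-06). Ccng1 fell by 0.66 and Bbc3, a pro-apoptotic gene, by 0.49 on the log2 scale. Replicates of these genes were close, and the groups did not overlap. Of 16 cell cycle genes 3 were lower, Cdkn1a, Ccne2 and Ccnd1 (18.8% called beside 17.8% of all genes, median -0.12). Ccnd1 had 5521, 6034 and 7937 in B5 and 2847, 2792 and 4187 in M5 (adjusted p = 5e-05). Of 12 hypoxia genes Ndrg1 was higher and of 12 immediate early genes Atf3 was lower, 8.33% each beside 17.8% of all genes. The list medians were 0.13 and 0.1. Without B5 replicate 1 each of these 2 lists held 2 calls. The Ccne2 call was lost without M5 replicate 1, M5 replicate 2 or B5 replicate 3, and its adjusted p ran from 0.00014 to 0.13 over the alternatives. No mitochondrially encoded transcript of the 9 looked for was among the listed genes.

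**Figure D4:**
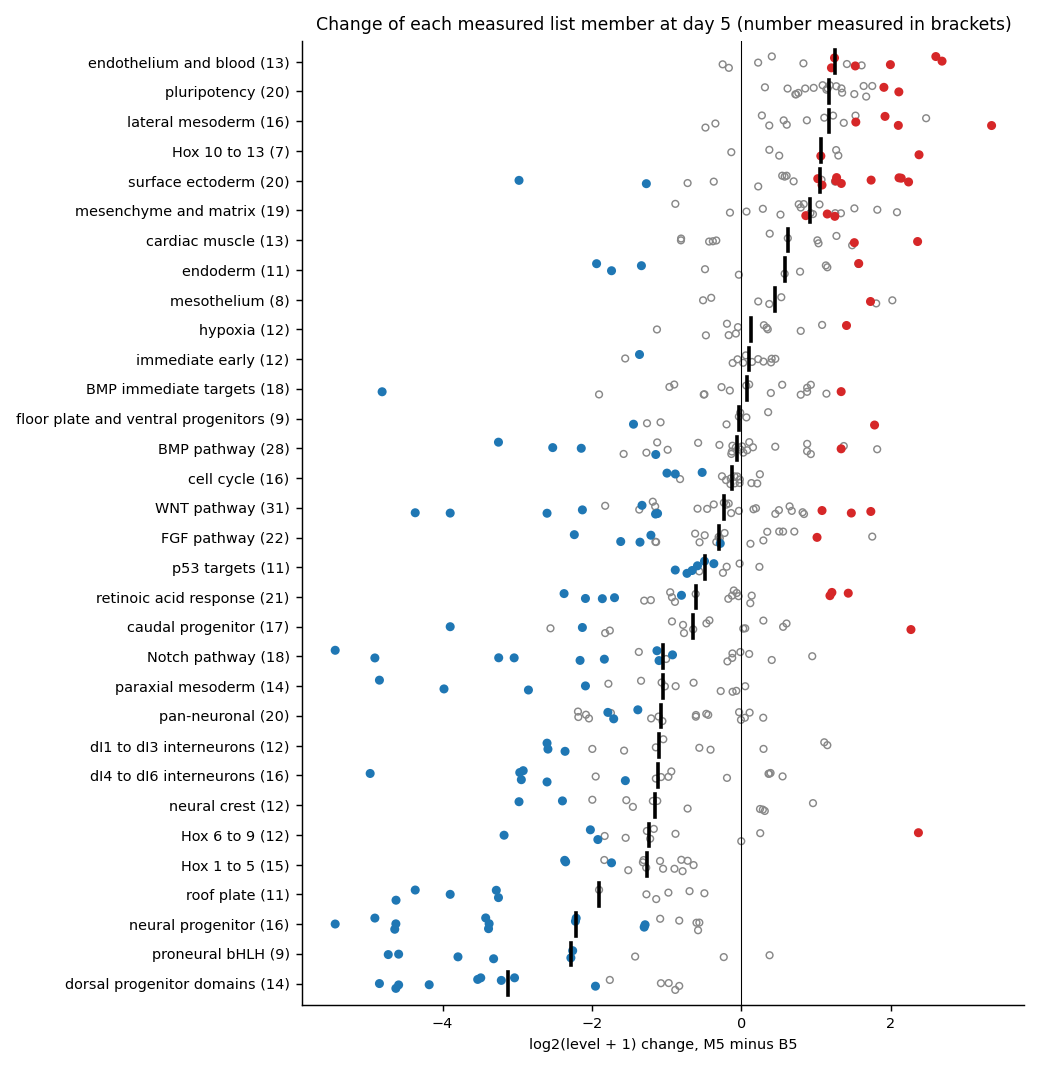
Log2(level + 1) change M5 minus B5 of each measured member of 32 gene lists, ordered by the list median (black bars). Filled points were called (red higher, blue lower) and open points were not, and the medians run from -3.12 for dorsal progenitor domains to 1.25 for endothelium and blood.

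On days 7 and 9, in libraries that the day 5 comparison does not use, M7 differed from B7 in 4673 genes (41.6%) and M9 from B9 in 5777 (51.5%). Of the 961 genes higher at day 5, 516 (53.7%) were called higher at day 7 and 34 lower, beside 21.7% and 19.9% of all genes. At day 9 the numbers were 371 (38.6%) and 95, beside 27.8% and 23.7%. Of the 1036 lower genes, 602 (58.1%) were lower and 38 higher at day 7, and 441 (42.6%) lower and 128 higher at day 9. The 516 and 371 are 21.2% and 11.9% of the genes higher at those days. Of the 10 leading higher genes 8 were higher at day 7 and 5 at day 9, with Crhbp lower on both days, and of the 10 leading lower genes 9 were lower at day 7 and 7 at day 9.

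Single genes followed different courses. Tac2 kept a difference, with levels of 15, 5.1 and 8.47 in B7 and 154, 170 and 150 in M7, and of 4.04, 2.46 and 2.32 in B9 and 12.5, 18.5 and 24.0 in M9 (adjusted p = 5.9e-08 and 0.00024). Phox2a did not, with 88.5, 118 and 94.6 in B7 and 91.2, 114 and 109 in M7 (log2 change 0.07, adjusted p = 0.84). Crhbp crossed over, standing at 16.1, 28.8 and 34.0 in B7 and 0.741, 6.4 and 3.49 in M7 (log2 change -2.76, adjusted p = 0.00014). Hand1, not called at day 5 though its M5 libraries all lay above B5, stood at 16.8, 13.9 and 18.5 in B7 and 1168, 1148 and 942 in M7 (log2 change 5.97, adjusted p = 4.6e-06). Gata5, which overlapped at day 5, had 38, 27.3 and 41.6 in B7 and 575, 1470 and 1434 in M7 (log2 change 4.89, adjusted p = 4.4e-05). The difference between the day 7 and day 5 effects was itself called for Crhbp and Gata5, among 1599 genes (14.3%), and the day 9 difference was called in 3860 (34.4%). The 1599 fell to 918, 867 or 839 without M5 replicate 1, B5 replicate 3 or M7 replicate 2.

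On days 5, 7 and 9, 8.57%, 21.7% and 27.8% of all genes were called higher, and 9.23%, 19.9% and 23.7% lower. By list, lateral mesoderm had 4 higher genes at day 5, 12 at day 7 and 11 at day 9 of 16, with medians of 1.17, 2.49 and 1.87. Neural progenitor genes had 11, 11 and 8 lower, and 2 were higher at each later day. Pan-neuronal genes had 3 lower at day 5, 18 at day 7 and 15 at day 9 of 20, with medians of -1.08, -3.21 and -2.09. Pluripotency genes went from a median of 1.17 at day 5 to -0.74 at day 7 and -2.48 at day 9, where 19 of 20 were lower in M9. The paraxial list held 4 higher and 3 lower genes of 14 at day 7, near the 21.7% and 19.9% of all genes, with Meox1 standing at 61.4, 95.7 and 59.2 in B7 and 329, 632 and 602 in M7 (adjusted p = 0.0012).

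**Figure D5:**
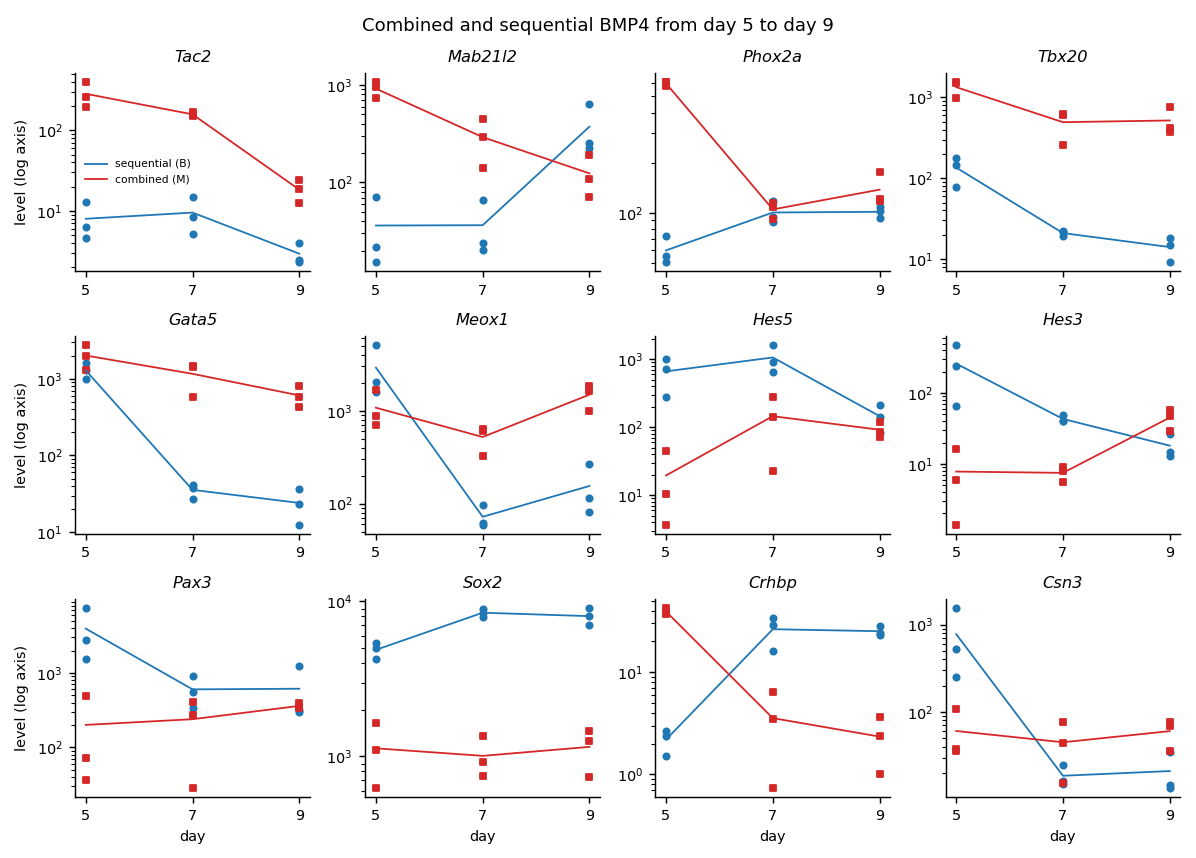
Levels (log axis) on days 5, 7 and 9 for the sequential (blue circles) and combined (red squares) regimens, 1 point per library with lines through the means of 3. Tac2 and Tbx20 stay higher under the combined regimen, Gata5 overlaps at day 5 and separates by day 7, Crhbp crosses over between days 5 and 7, and Sox2 stays lower.

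The authors' deposited table has its own test of B5 against M5. By it, 1588 genes passed a false discovery rate of 0.05, 783 higher and 805 lower in M5, and 1506 of them were also called here, which is 94.8% of the authors' calls and 75.4% of the 1997.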

How the data were processed

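RNA from whole cultures was sequenced (mRNA libraries, 3 per group). Per the submitters' processing notes Picard, edgeR and mm10 were used. No aligner, read counter or annotation is given in the sources used here. The authors deposited a normalised signal per gene and library, of unnamed unit, for 11220 genes that passed their false discovery rate in any of 12 comparisons. The number of genes they tested, 16014, is not stated by them and was inferred from their p-values and false discovery rates. Read depth is unknown, since the deposited values are not counts. The authors' deposited p-values (false discovery rates) and their log2 fold changes for B5 against M5 were used as an alternative. A second set of deposited values, headed FPKM, was a score that equals a power of the levels and was not used.

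Levels were analysed as log2(level + 1), in genes with a level of at least 1 in at least 3 libraries, which left all 11220. A single limma-trend model with robust empirical Bayes covered all 45 libraries and 15 groups, with Benjamini-Hochberg adjustment and calls under 0.05 (limma 3.58.1, R 4.3.3; Python 3.11.15, pandas 2.3.3, numpy 2.4.6, matplotlib 3.10.9). Tested on simulated data for M5 against B5 with 11220 genes, it recovered 56% of 2-fold and 93% of 4-fold changes, with 14 false calls. The simulated noise was independent between genes, and fewer genes were changed than were called in the data. Deviations shared by many genes of a library were thus left out, and the share of false calls in the data cannot be read from it. Named genes were up to 10 in each direction with the largest called change, no overlap and a group mean of at least 5, up to 4 called members with the smallest adjusted p in each list, a fixed panel, up to 2 members of a list with no call, and up to 5 in each direction for each difference between days. A further 29 genes were chosen after their values were seen. The members and lists were chosen with earlier results of these data known. Coordinates are from GENCODE M21 on mm10. Alternatives were a replicate block, other sets of libraries, each library left out, pseudocounts of 0.1 and 5, filters, quantile normalization, median centring, array weights, stricter thresholds and the authors' test. Values of some named genes are not reported here.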

Additional observations from a re-analysis of the deposited data

Results flagged for a closer look

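The M5 to B5 effect differed from the later M to B effect in 1599 genes at day 7 and in 3860 at day 9, by a limma-trend test of the difference itself with Benjamini-Hochberg adjustment. Both tests use the same day 5 libraries, so they are not independent. Mab21l2, Crhbp, Hes5 and Hes3 were also chosen by their day 5 change, which favours a large difference, and the others were mostly chosen by the size of the difference.

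Crhbp, the corticotropin-releasing hormone binding protein gene, had a log2 change 6.43 smaller at day 7 than at day 5 (difference -6.43, adjusted p = 1.6e-06) and a difference of -6.72 at day 9 (adjusted p = 4.2e-07). Robo4, an endothelial receptor gene, had differences of -4.15 and -4.93 (adjusted p = 0.0019 and 9.8e-05), from a change of 2.28 at day 5. Tcl1, a pluripotency gene, had differences of -3.09 and -5.98 (adjusted p = 0.039 and 8e-05). Prelp, a matrix protein gene, had -4.76 and -2.2 (adjusted p = 2.9e-05 and 0.014). Cntn2, an axonal adhesion gene, had -5.56 and -4.71 (adjusted p = 0.0026 and 0.0035), Sncg, a synuclein gene, -4.51 and -3.1 (adjusted p = 0.0065 and 0.029), and Scn3a, a sodium channel gene, -4.38 and -4.07 (adjusted p = 0.015 and 0.011).

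Positive differences on both days are given here for 6 named genes. Over all genes 849 were called positive at day 7 and 2247 at day 9. Gata5, a mesoderm factor, had 4.28 and 4.06 (adjusted p = 0.019 and 0.012), and Meox1, a somite factor, 4.15 and 4.74 (adjusted p = 0.0042 and 0.00046). Csn3, a casein gene, had 4.46 and 5.0 (adjusted p = 0.017 and 0.0034), from a day 5 change of -3.46. Foxe3, a lens factor, had 3.96 and 5.28 (adjusted p = 0.045 and 0.0038), Sp8, a limb and forebrain factor, 4.32 and 3.47 (adjusted p = 0.0086 and 0.016), and Iigp1, an interferon-induced GTPase gene, 4.03 and 3.07 (adjusted p = 0.0027 and 0.0079).

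Some genes differed at day 9 alone by this threshold. Mab21l2 had -6.45 (adjusted p = 0.0001) and Arl14epl -5.06 (adjusted p = 0.00036). Hes3 and Hes5, the Notch effector genes, had 6.19 and 4.85 (adjusted p = 0.00034 and 0.003). The M9 to B9 change was not called for either (log2 1.29 and -0.59, adjusted p = 0.21 and 0.58). Hoxaas3, an antisense transcript that overlaps Hox genes of its cluster and is therefore uncertain, had 4.79 (adjusted p = 0.0049).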

How the results depend on the processing

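The number of genes differing between M5 and B5, 1997 as reported, was 1020 in a fit of the compared libraries alone, 4105 with array weights, 1047 at an adjusted p under 0.01 and 972 with a 2-fold minimum. Leaving out 1 library gave 1026 to 1996. For M7 against B7 the counts were 7296 with array weights, 3058 at 0.01 and 2073 with the 2-fold minimum, and 3584 to 4198 with a library left out. For M9 against B9 the 2-fold minimum gave 2220, and leaving out a library gave 4395 to 5400. The day 7 minus day 5 difference gave 4948, 571 and 821 genes under array weights, 0.01 and the 2-fold minimum, and 839 to 1881 with a library left out. The day 9 minus day 5 difference gave 6287, 1964 and 1786, and 2602 to 4030. Other scalings, pseudocounts and filters stayed within 1.5 times of the reported counts. Causes were not tested, apart from stricter thresholds calling fewer genes by construction.

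With the replicate number as a block the M5 to B5 count was 1927. With the compared libraries alone it was 1366 with the block and 1020 without it. The numbers do not pair these libraries. Deviations of same-numbered M5 and B5 libraries correlated across genes at 0.017, 0.13 and 0.49. M5 replicates 2 and 3 correlated best with their own number, and M5 replicate 1 with B5 replicate 2 (0.45). The same-numbered values were 0.61, 0.013 and 0.54 for M7 and B7, and -0.35, -0.15 and 0.086 for M9 and B9. Of 174 named genes, 4 lost a call under the block over all libraries. Under the block in the compared libraries alone, 20 lost a call and 12 gained one.

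The sign turned in 4 uncalled genes. With a library left out Hes1 ran from -0.06 to 0.04 (0.0 without M5 replicate 2), Id1 from -0.31 to 0.0, Tal1 from -0.07 to 0.6 and Scn3a from -0.36 to 0.98 (-0.04 without B5 replicate 2). Hes1 was 0.01 with quantile normalization, 0.05 with median centring and 0.0 by the authors' deposited test, which gave -0.27 for Scn3a. Calls were lost in 42, 46 and 46 named genes without M5 replicate 1, M5 replicate 2 and B5 replicate 3. Since depth is unknown, no counting limit can be given for low levels.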
